A study of Rattus norvegicus with 24 samples.

Results

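The right carotid bodies (CBs) of spontaneously hypertensive (SH) rats were compared with those of normotensive Wistar-Kyoto (WKY) rats, with 1 library per rat. Of the 24 libraries of the series, 11 entered this comparison, namely the right CBs of 6 WKY rats (numbers 32, 33, 34, 36, 37 and 41) and of 5 SH rats (numbers 30, 31, 33, 36 and 37). They were chosen by the strain and side in their labels. The right CB of SH rat 34 was left out, because it is not among the libraries of the table of the study that supplied the gene names and because its thyroglobulin (Tg) level stood far above that of the other right CBs. The rats were males of 12 to 14 weeks, of the strains WKY/NHsd and SHR/NHsd, with no treatment named in the labels. All were perfused with ice-cold PBS before the CBs were dissected from the carotid bifurcation, and polyadenylated RNA was sequenced from stranded libraries. The strains are separate inbred lines, so a difference between them cannot be told apart from any other way in which their breeding differs, and blood pressure is not varied within a strain.

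The CB is a small sensory organ at the carotid bifurcation. Its glomus (type I) cells respond to a fall in arterial oxygen by closing potassium channels, letting in calcium and releasing transmitters onto the endings of the carotid sinus nerve, which raises breathing and sympathetic outflow. Glomus cells are held by glia-like sustentacular (type II) cells in a bed of capillaries and connective tissue, so RNA of a whole CB mixes several cell types. A lower level of a gene in such RNA can mean fewer cells of a type or less RNA per cell, and these cannot be told apart here.

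The 6 WKY libraries held 9334257 to 11278996 counts (median 9759037.5) and the 5 SH libraries 9357226 to 13655419 (median 9841817). Glomus genes were present in all 11 libraries: the chromogranin Chgb lay between 428 and 779 CPM (the counts of a gene scaled to its library's total after TMM normalization). The summed level of the 7 glomus markers with a symbol was 1120 to 1660 CPM in WKY and 1490 to 2110 CPM in SH rats, against 98.5 CPM in the right library of SH rat 34, where Tg was at 7849 CPM. These 7 were named from genes higher in SH rats, so their sum does not compare glomus content between the strains. Levels in the right library of SH rat 34, here and below, were scaled over all 24 libraries. Those of the 11 libraries were scaled over the 11 alone, so the scales are not the same. Tg marks thyroid follicular cells, which lie close to the CB in the neck. Among the libraries used it was between 0.268 and 3.35 CPM in WKY rats, and in SH rats it was at 218 CPM in rat 30, 29.2 CPM in rat 37, 7.15 CPM in rat 33, 2.62 CPM in rat 31 and 1.05 CPM in rat 36. Its strain difference did not pass the threshold (log2 fold change 5.39 ± 1.52 SE, adjusted p = 0.0784, edgeR).

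The strains separated on the first principal component of the right CBs. On this component of the 500 most variable genes, which carried 44.5% of the variance, WKY rats lay between -11.5 and -3.12 and SH rats between 5.54 and 9.13. The strains did not overlap, and their difference of 14.4 had the smallest p that an exact two-sided permutation of 6 against 5 rats can give (p = 0.00433). The second component (19.2%) did not separate them (exact permutation p = 0.775). It spread the WKY rats from rat 32 at the bottom to rat 36 at the top.

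**Figure D1:**
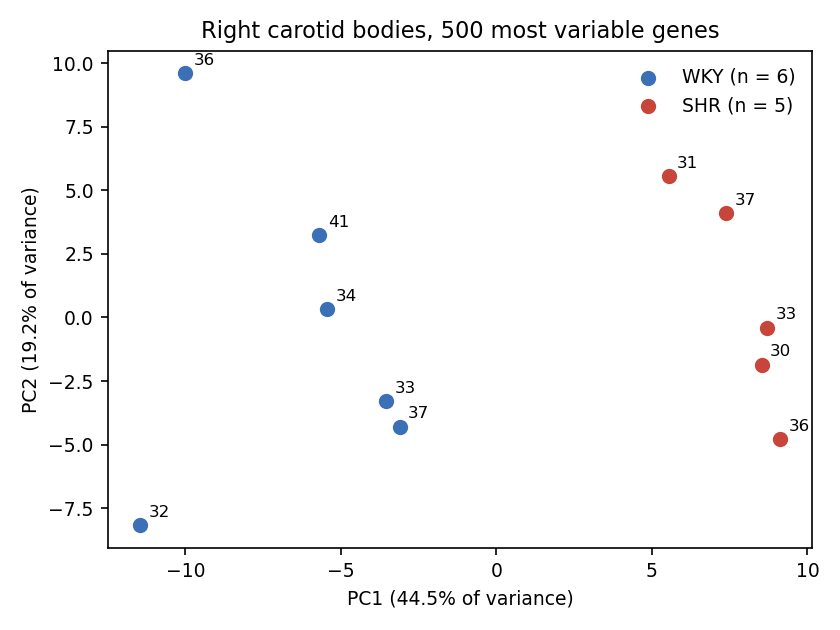
Scores of the 11 right CB libraries on the first and second principal components of variance-stabilized counts (unitless), with the rat number beside each point. WKY rats (blue) lie at or below -3.12 and SH rats (red) at or above 5.54 on the first component.

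Of 14251 genes tested, 838 (5.88%) differed between the strains at an adjusted p below 0.05 by edgeR's quasi-likelihood test, 405 of them higher in SH rats (2.84% of those tested) and 433 lower. The differences were mostly small, with a median absolute log2 fold change of 0.62. A difference of at least 1 on the log2 scale was found for 120 genes higher and 104 lower in SH rats, and one of at least 2 for 33 and 34. Of the 838, 602 had no overlap between the libraries of the strains, against 775 of all genes tested (5.44%). The log2 fold change over all tested genes had a median of -0.00257.

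Symbols could be given to 1261 of the tested genes from the study's table of genes over 23 libraries, these 11 included. Only its first rows could be read here, and all of those are genes higher in SH rats. The direction of a named gene was therefore set by its source, and its count and direction are a description. Of the 1261 named genes, 343 (27.2%) passed in the right CBs, all of them higher in SH rats, and 9 had a fold change below 0. The counts of the lists below are of genes named in this way, so they stand beside this share as well as beside the 2.84% of all genes, and the median fold change of a list is positive through the choice of names. The rows read hold no symbol for genes lower in SH rats. Glp1r, Insr and Gipr were identified through the fold change and adjusted p that the study prints for them, so that their direction is fixed as well.

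The receptor for glucagon-like peptide 1, Glp1r, was at 7.65 to 16.6 CPM in WKY rats (median 11.8) and at 0.998, 0.727, 0.357, 1.05 and 0.107 CPM in SH rats. Each SH library lay below each WKY library, and the log2 fold change was -4.20 ± 0.33 (adjusted p = 7.67e-07, edgeR). The insulin receptor, Insr, was at 67.8 to 86.4 CPM in WKY rats (median 74.3) and at 41.8, 41.8, 42.9, 52.3 and 43.4 CPM in SH rats, again without overlap (log2 fold change -0.79 ± 0.08, adjusted p = 2.03e-05). Gipr, the receptor for the gut hormone GIP, overlapped between the strains, at 8.07 to 18.5 CPM (median 13) against 8.19, 10.9, 7.33, 6.6 and 8.59 CPM, and did not pass in the right CBs alone (log2 fold change -0.70 ± 0.21, adjusted p = 0.0626). Over the fits that leave out 1 rat its adjusted p ran from 0.0182 to 0.141.

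The 8 named genes with the largest rises and no overlap were Ifit1, LOC100360940, Tnn, Thsd7b, Chodl, Dppa4, LOC360919 and Slc27a6. Ifit1, an interferon-induced protein that binds foreign RNA, had 1 count in all 6 WKY libraries together (0 CPM in 5 and 0.105 CPM in rat 33) and 36.2, 49.9, 30.4, 33 and 30.4 CPM in SH rats. Over the summed counts, 1 in WKY and 1987 in SH rats, this was a ratio of 2210 with an exact 95% interval of 397 to 87500 that covers counting error only, and Ifit1 had the lowest adjusted p of the named genes (2.98e-11, edgeR). The right library of SH rat 34 had 40.9 CPM of Ifit1. LOC100360940 was at 0.331 to 1.7 CPM in WKY (median 1.06) and at 22.3, 24.2, 17.8, 16.9 and 16.4 CPM in SH rats (log2 fold change 4.16 ± 0.25, adjusted p = 3.83e-08, edgeR).

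Chodl, a membrane lectin of motor and other neurons, was at 3.3 to 6.39 CPM in WKY (median 4.78) and at 46.3, 43.4, 61.5, 58.8 and 51 CPM in SH rats (3.44 ± 0.15 on the log2 scale, adjusted p = 6.83e-10). The spread within a strain was small beside the difference for these 3 genes. It was wider for Tnn, a tenascin of the extracellular matrix, at 0.211 to 3.53 CPM in WKY (median 1.33) and 22.3, 9.52, 47.7, 12.5 and 4.73 CPM in SH rats (log2 fold change 3.57 ± 0.73, adjusted p = 0.0182). Thsd7b was at 0.2 to 1.55 CPM (median 0.503) against 6.79, 4.65, 3.48, 7.55 and 16.2 CPM (3.54 ± 0.50 on the log2 scale, adjusted p = 0.000609).

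The other 3 were scarce in both strains. Dppa4, known from pluripotent cells, was at 0.103 to 0.394 CPM in WKY and at 0.699, 1.67, 1.79, 3.77 and 3.12 CPM in SH rats. LOC360919 was at 0 to 1.4 CPM in WKY and at 5.79, 2.25, 3.84, 3.56 and 1.61 CPM in SH rats. Slc27a6, a fatty acid transport protein, was at 0.4 to 1.45 CPM in WKY and at 5.59, 1.96, 3.22, 4.4 and 8.38 CPM in SH rats. The log2 fold changes were 3.15 ± 0.48, 2.93 ± 0.62 and 2.54 ± 0.40, with adjusted p of 0.000657, 0.0105 and 0.000813 (edgeR). In the fits that leave out 1 rat, 7 of the 8 genes passed in all 11, and Dppa4 passed in the 9 in which its counts were high enough to be tested, those other than without SH rat 36 or 37.

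**Figure D2:**
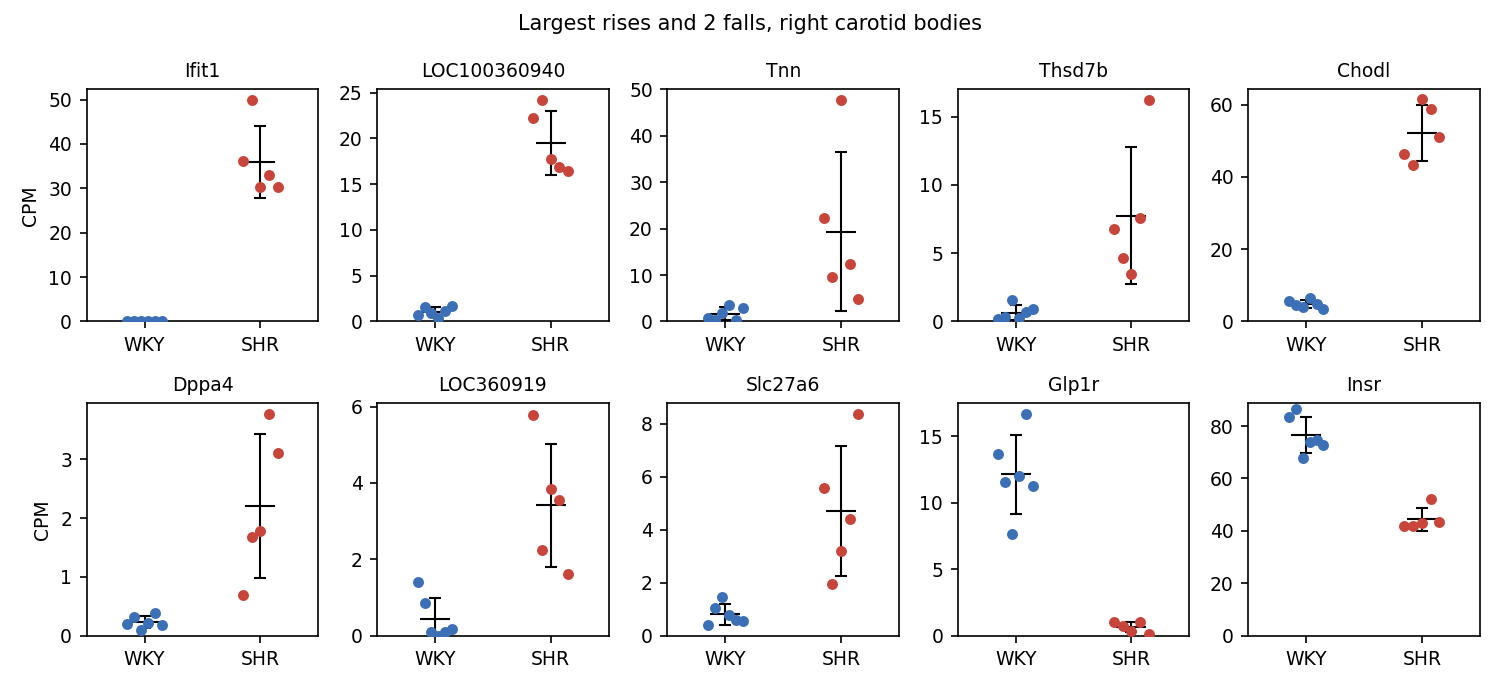
CPM in each right CB library (points; bars give mean and SD) of WKY rats (blue, n = 6) and SH rats (red, n = 5) for the 8 named genes of largest rise, and for Glp1r and Insr. The strains do not overlap in any panel, which was a condition for choosing the 8. Tnn and Thsd7b spread most within the SH rats.

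Some genes were at or near 0 in all libraries of one strain. Of all genes counted, 7 had at most 3 counts in each WKY library and more than 10 in each SH library, and 3 showed the reverse. Ifit1 was the only one of these with a symbol. Of the identifiers without a symbol, the largest rises with no overlap were ENSRNOG00000060524 (1 count over the WKY rats and 376 over the SH rats, a ratio of 419, 74.7 to 16600) and ENSRNOG00000032518 (1 and 137 counts, a ratio of 153, 26.9 to 6070). The largest falls were ENSRNOG00000048741 and ENSRNOG00000030689, with 120 and 118 counts over the WKY rats and none in the SH libraries used. Against 3 counts over the SH rats, these were at least 35.9-fold and 35.3-fold lower.

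Glomus cell genes were described from 23 listed markers, of which 7 have a symbol here and 4 passed, all 4 with no overlap between the strains. Their median log2 fold change was 0.72, a sign that the choice of names had fixed. Dbh, which converts dopamine to noradrenaline, was at 10.3 to 26.2 CPM in WKY (median 20.8) and at 34.3, 32.9, 40, 49.6 and 34.9 CPM in SH rats (log2 fold change 0.94 ± 0.19, adjusted p = 0.00863, edgeR). Each SH library lay above each WKY library.

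Prph, a neuronal intermediate filament, was at 170 to 240 CPM in WKY (median 213) and at 348, 365, 356, 367 and 310 CPM in SH rats (0.73 ± 0.09 on the log2 scale, adjusted p = 9.62e-05, edgeR). Ret, the receptor through which GDNF-family factors signal, was at 25 to 48.4 CPM (median 38.8) against 56.6, 69.1, 53.8, 72.6 and 55.2 CPM (0.72 ± 0.14, adjusted p = 0.00555). The granule protein Chgb did not pass (0.33 ± 0.10, adjusted p = 0.0697). The glomus count was 4 to 5 of 7 when 1 rat was left out. With the right library of SH rat 34, in which glomus genes were low, it was 0 of 7.

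For amine synthesis, storage and uptake, 20 genes were listed, 7 have a symbol and 5 passed, with a median log2 fold change of 0.65. Besides Dbh, these were Slc17a9, Rnls, Moxd1 and Slc6a4. Slc17a9, the vesicular nucleotide transporter that loads ATP into granules, was at 1.6 to 2.69 CPM in WKY (median 2.48) and at 4.39, 5.31, 4.65, 5.56 and 5.58 CPM in SH rats (1.16 ± 0.20, adjusted p = 0.00171). Moxd1, a relative of Dbh, was at 4.65 to 8.15 CPM (median 7) against 9.78, 16.6, 17.5, 10.8 and 33.1 CPM (1.38 ± 0.28, adjusted p = 0.0102). Moxd1 was at 105 CPM in the right library of SH rat 34, the library with the most Tg, while SH rat 30, with the most Tg of the libraries used, had the lowest Moxd1 of the SH rats. The part of other tissue in its rise was not tested. The serotonin transporter Slc6a4 rose from 28.3 ± 5.11 (SD, n = 6) to 39.6 ± 3.83 CPM (n = 5; adjusted p = 0.0273).

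Of 38 listed peptide receptors, 12 have a symbol from the table and 6 passed, with a median log2 fold change of 0.58. Glp1r, Insr and Gipr are also on this list, were lower in SH rats as given above, and are not in these counts. The melanocortin receptor Mc4r was at 1.43 to 4.21 CPM in WKY (median 2.44) and at 14.5, 11.8, 12.3, 21.9 and 7.52 CPM in SH rats (2.40 ± 0.29, adjusted p = 0.000103, edgeR). The nociceptin receptor Oprl1 was at 0.421 to 1.55 CPM (median 0.845) against 2.5, 1.75, 3.48, 3.88 and 2.26 CPM (1.59 ± 0.33, adjusted p = 0.00728). Both were without overlap between the strains.

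The angiotensin II type 2 receptor, Agtr2, raises different signals from the better known type 1 receptor for the same hormone. It was at 89.7 to 261 CPM in WKY (median 215) and at 325, 365, 442, 556 and 365 CPM in SH rats (1.01 ± 0.24, adjusted p = 0.0316), and WKY rat 36 was the lowest library. The call for Agtr2 was lost without SH rat 31, 33, 36 or 37 or WKY rat 33, 34, 37 or 41, with adjusted p between 0.0529 and 0.0682, and the adjusted p was 0.001 without WKY rat 36. The somatostatin receptor Sstr2 rose from 21.7 ± 3.98 to 40.1 ± 6.78 CPM (adjusted p = 0.000711), and the secretin receptor Sctr did not pass (0.77 ± 0.23, adjusted p = 0.0648). The receptor count was 3 to 5 of 12 when 1 rat was left out, with 3 without SH rat 31, 33 or 37 or WKY rat 34.

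Of 22 listed peptide ligands, 9 have a symbol and 3 passed, with a median of 0.95. Prlh, the prolactin-releasing peptide, was at 1.24 to 2.59 CPM in WKY (median 1.73) and at 5.09, 4.29, 6.25, 4.51 and 2.15 CPM in SH rats, so that SH rat 37 lay within the WKY range (1.29 ± 0.27, adjusted p = 0.00879, edgeR). Cartpt, the precursor of the CART peptides, was at 9.62 to 26.6 CPM (median 17.3) against 30.9, 30.9, 24.4, 42 and 36.5 CPM (0.95 ± 0.21, adjusted p = 0.0185), with SH rat 33 within the WKY range. Inha, an inhibin subunit, rose by less (0.47 ± 0.13, adjusted p = 0.0387) and lost its call without SH rat 30, 31 or 37 or WKY rat 32, 34 or 36 (adjusted p 0.0539 to 0.116). Inhbb did not pass (1.48 ± 0.43, adjusted p = 0.0549).

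Of 31 listed receptors for amines, acetylcholine, purines and cannabinoids, 12 have a symbol and 3 passed (25.0%, against 27.2% of all named genes). The 3 are receptors for acetylcholine. The nicotinic subunit Chrna3 was at 26 to 35.5 CPM in WKY (median 30) and at 57.3, 44.9, 62.3, 57.3 and 35.8 CPM in SH rats (0.75 ± 0.13, adjusted p = 0.00261, edgeR). The muscarinic receptor Chrm1 was near the limit of detection, at 0 to 0.804 CPM against 0.899, 1.67, 2.68, 1.36 and 2.9 CPM (2.16 ± 0.49, adjusted p = 0.0135). Chrm3 (0.77 ± 0.20, adjusted p = 0.0306) lost its call without SH rat 30, 33 or 37 or WKY rat 32, 34, 36 or 37, and the count of 3 was 1 without SH rat 33. The adenosine receptor Adora2b did not pass (0.57 ± 0.18, adjusted p = 0.0737).

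Potassium channels set the membrane potential of glomus cells. Of 37 listed potassium channel genes, 14 have a symbol and 0 passed by edgeR, with a median log2 fold change of 0.64. DESeq2 called 3 and limma voom 2. The channel with the lowest adjusted p, Kcnq1, had no overlap between the strains, at 1.21 to 2.86 CPM (median 2.25) against 4.09, 3.42, 3.57, 3.46 and 3.76 CPM, and did not pass (0.80 ± 0.23, adjusted p = 0.0569). Of 40 listed sodium, calcium, acid-sensing and other cation channel genes, 17 have a symbol, 16 were tested and 3 passed. The sodium channel Scn9a, of sympathetic and sensory neurons, was at 23.2 to 31.9 CPM in WKY (median 26.2) and at 53.7, 33, 60.6, 47.2 and 33.8 CPM in SH rats (0.77 ± 0.16, adjusted p = 0.00855). The T-type calcium channel Cacna1g rose (0.47 ± 0.11, adjusted p = 0.017) and missed the threshold without SH rat 30 (adjusted p = 0.0572). The lowest log2 fold change of Cacna1g over the fits without 1 rat was 0.409. Grid1 (1.17 ± 0.32, adjusted p = 0.0415) lost its call without SH rat 30, 31, 36 or 37 or WKY rat 32, 34, 36, 37 or 41 (adjusted p up to 0.106), and Cacng7 did not pass (adjusted p = 0.0599).

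Of 33 listed synaptic adhesion and exocytosis genes, 29 were tested and 13 passed (44.8%), with a median log2 fold change of 0.51. After Chodl, Syt6, a synaptotagmin, was at 1.55 to 4.63 CPM in WKY (median 2.56) and at 14.9, 15.6, 18.7, 19.2 and 11 CPM in SH rats (2.50 ± 0.26, adjusted p = 2.58e-05, edgeR). Nrcam, a neuronal cell adhesion molecule, rose from 44.6 ± 5.73 to 114 ± 10.8 CPM (1.36 ± 0.09, adjusted p = 1.18e-07), and Nxph1, a neurexin ligand, from 0.837 ± 0.359 to 4.54 ± 1.06 CPM (2.42 ± 0.30, adjusted p = 8.45e-05). The 3 had no overlap between the strains. Csmd3 (2.48 ± 0.64, adjusted p = 0.0336) lost its call in 6 of the fits that leave out 1 rat, those without SH rat 33, 36 or 37 or WKY rat 32, 33 or 41. Cntn2 did not pass (0.76 ± 0.25, adjusted p = 0.0961). The count was 9 to 12 when 1 rat was left out.

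Of 26 listed antigen presentation genes, 11 have a symbol and 7 passed, with a median log2 fold change of 0.52 and the largest changes in the RT1 (rat MHC) genes. Promoters were taken from RefSeq (build GRCr8, 250 bases before to 50 after the start, printed 5′ to 3′ on the strand of the gene). They are shown for the class I gene RT1-A1 at chr20:4906959-4907258 (+), the class II gene RT1-DOa at chr20:4758374-4758673 (-) and the interferon-induced Ifitm2 at chr1:205482299-205482598 (-). Each of these 3 genes rose without overlap between the strains. They were picked by hand, and RT1-CE12 and Ifnar1, also without overlap, are not shown. Of the 90 genes with a symbol that were picked to be named with values, 62 have a RefSeq promoter here. Capitals mark 2 motifs searched on both strands, CCAAT, known as the core of the Y box of MHC promoters, and the core of the interferon-stimulated response element, GAAANNGAAA. They do not overlap each other in these windows.
RT1-A1: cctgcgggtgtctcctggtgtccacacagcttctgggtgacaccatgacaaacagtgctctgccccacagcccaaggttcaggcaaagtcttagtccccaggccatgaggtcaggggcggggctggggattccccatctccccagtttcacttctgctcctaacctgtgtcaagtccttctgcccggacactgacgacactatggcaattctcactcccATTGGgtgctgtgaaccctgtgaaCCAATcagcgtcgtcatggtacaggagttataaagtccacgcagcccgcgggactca
RT1-DOa: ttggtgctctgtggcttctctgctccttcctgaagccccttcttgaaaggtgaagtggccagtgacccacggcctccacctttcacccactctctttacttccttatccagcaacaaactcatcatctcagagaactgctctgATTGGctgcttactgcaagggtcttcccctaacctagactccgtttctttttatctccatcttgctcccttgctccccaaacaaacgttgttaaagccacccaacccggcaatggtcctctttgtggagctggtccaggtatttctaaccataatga
Ifitm2: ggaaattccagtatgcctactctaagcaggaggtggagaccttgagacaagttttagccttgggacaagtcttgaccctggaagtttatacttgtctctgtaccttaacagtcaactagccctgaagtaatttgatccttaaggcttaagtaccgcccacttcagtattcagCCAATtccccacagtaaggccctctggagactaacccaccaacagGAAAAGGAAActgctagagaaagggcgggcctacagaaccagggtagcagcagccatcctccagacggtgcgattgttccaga
CCAAT or its complement was found at 2 places for RT1-A1 and 1 place each for RT1-DOa and Ifitm2, and it occurs in 37.5% of the 33469 promoters of that table. The interferon-type motif was found once, in Ifitm2, and occurs in 3.92%. A match is a string of letters and not a measured site. Only exact matches were marked, so a window without one may still hold a variant of the element.

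RT1-A1 was at 126 to 152 CPM in WKY (median 136) and at 639, 651, 560, 514 and 669 CPM in SH rats (2.14 ± 0.08, adjusted p = 2.17e-10, edgeR). RT1-DOa was at 2.5 to 5.27 CPM (median 4) against 15.7, 11.5, 12.4, 10.4 and 18.7 CPM (1.82 ± 0.20, adjusted p = 2.7e-05). RT1-CE12 was at 1.97 to 5.91 CPM (median 3.69) against 9.59, 13.1, 6.43, 7.02 and 11.4 CPM (1.33 ± 0.27, adjusted p = 0.00796). None of these 3 overlapped between the strains. Class I genes have near-identical copies and differ in sequence between rat strains, and the counting of reads shared between copies is not given in the sources used here, so the level of a single RT1 gene is uncertain. The peptide-loading factors Tapbp and Tapbpl also rose, by 0.47 ± 0.08 and 0.52 ± 0.09 (adjusted p = 0.00202 and 0.00132), as did the immunoproteasome subunit Psmb8 (0.58 ± 0.13, adjusted p = 0.0138). Ciita, the class II transactivator, did not pass (0.60 ± 0.17, adjusted p = 0.0523).

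The rise of Ifit1 was not shared by all interferon-induced genes. Of 19 listed, 7 have a symbol and 3 passed, with a median log2 fold change of 0.45. Ifitm2, a membrane protein that limits virus entry, was at 168 to 236 CPM in WKY (median 213) and at 280, 284, 254, 282 and 265 CPM in SH rats (0.38 ± 0.08, adjusted p = 0.00773, edgeR). Ifnar1, counted among the 3, is a chain of the type I interferon receptor and not an induced product. It differed by 0.26 ± 0.06 (adjusted p = 0.0097). Sting1 (0.52 ± 0.17, adjusted p = 0.0882) and the chemokine Cxcl10 (-0.05 ± 0.50, adjusted p = 0.966) did not pass. The count of 3 was the same in each fit that left out 1 rat.

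Lipid mediator and fatty acid handling genes had 27 listed, 22 with a symbol and 8 passed, with a median of 0.705. Ephx2, the soluble epoxide hydrolase that removes epoxy fatty acids, was at 3.12 to 5.95 CPM in WKY (median 4.71) and at 25.7, 25.9, 24, 27.2 and 25.7 CPM in SH rats (2.53 ± 0.14, adjusted p = 1.8e-08, edgeR). The SH rats differed from each other by little in this gene. Cd36, a fatty acid transporter, was at 10.4 to 15.4 CPM (median 11.8) against 27.1, 27.3, 30.6, 26.6 and 40.8 CPM (1.29 ± 0.14, adjusted p = 2.35e-05). Enpp2, or autotaxin, which makes lysophosphatidic acid, rose from 368 ± 55.2 to 769 ± 75.2 CPM (1.06 ± 0.10, adjusted p = 8.92e-06). Lpar3, a receptor for that lipid, was at 0.414 to 2.65 CPM (median 1.02) against 4.29, 4.14, 5.99, 3.98 and 2.79 CPM (1.72 ± 0.37, adjusted p = 0.00964). The lipase Lpl did not pass (0.34 ± 0.12, adjusted p = 0.103).

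**Figure D3:**
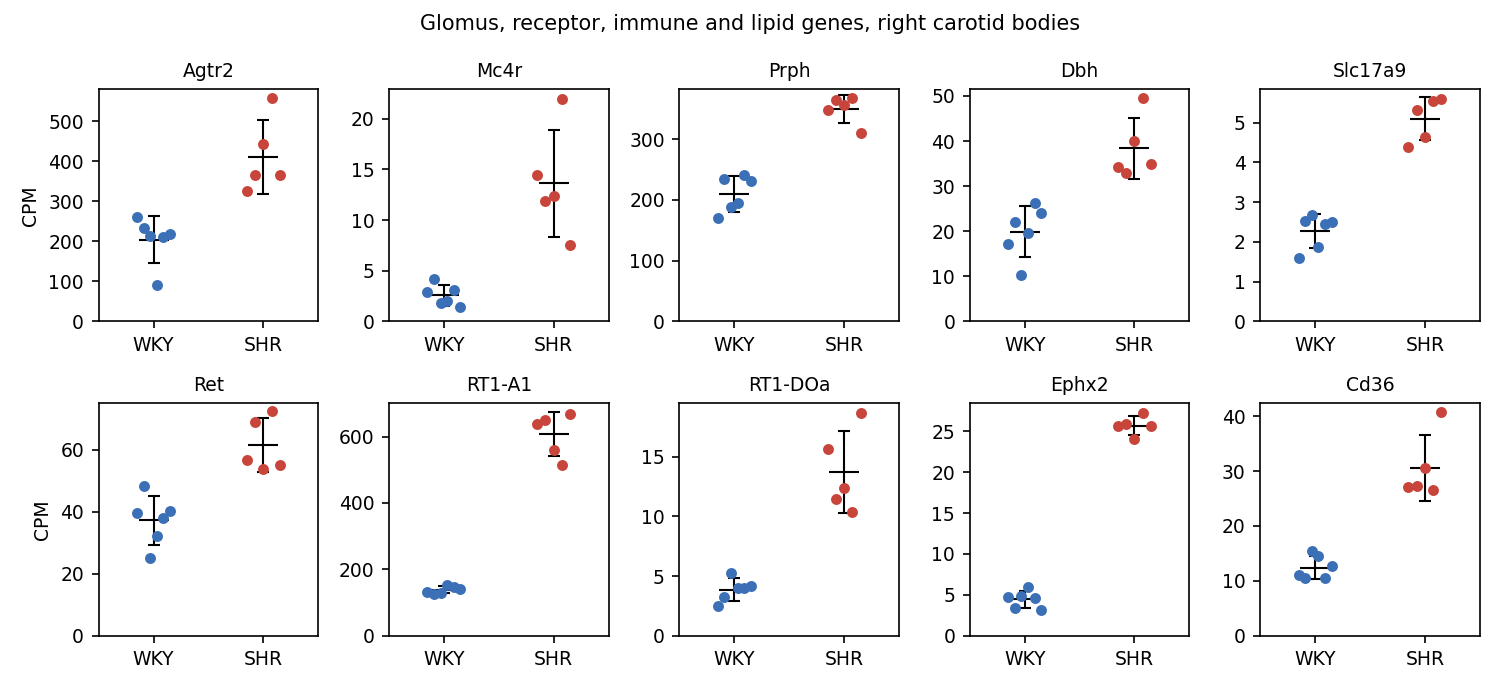
CPM in each right CB library (points; bars give mean and SD) of WKY rats (blue, n = 6) and SH rats (red, n = 5) for 10 genes of the receptor, glomus, amine, antigen presentation and lipid lists. Each SH library lies above each WKY library in all 10 panels, and WKY rat 36 is the low point for Agtr2 at 89.7 CPM. The 10 genes were picked by hand, so the lack of overlap is not a property of their lists. Of the 838 genes that passed, 602 had no overlap, as had 5.44% of all genes tested.

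Complement genes passed in 5 of 10 (20 listed, median log2 fold change 0.54). Cfd, a protease of the alternative pathway (1.23 ± 0.32, adjusted p = 0.0298, edgeR), and C6, a part of the membrane attack complex (1.05 ± 0.27, adjusted p = 0.0338), both lost the call without SH rat 33 or 37 or WKY rat 33 or 41, Cfd also without WKY rat 32 or 37, and C6 also without SH rat 30 or WKY rat 34 or 36, with adjusted p up to 0.0877 and 0.0719. C1qb did not pass (0.43 ± 0.13, adjusted p = 0.074). The complement count fell to 1 without SH rat 33, 2 without SH rat 37 and 3 without SH rat 30 or 31 or WKY rat 33.

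Among 20 listed hypoxia-regulated genes, 9 have a symbol and 3 passed, with a median of 0.57. The glycolytic enzyme Eno1 was at 102 to 119 CPM in WKY (median 108) and at 169, 184, 159, 200 and 190 CPM in SH rats (0.72 ± 0.07, adjusted p = 8.28e-06, edgeR). The glycolytic enzyme Pfkl rose from 45.6 ± 7.08 to 66 ± 4.44 CPM (0.53 ± 0.10, adjusted p = 0.00355), and the vessel growth factor Vegfd from 12.5 ± 2.05 to 20.5 ± 3.89 CPM (0.70 ± 0.14, adjusted p = 0.00702). Hk2 did not pass (0.57 ± 0.17, adjusted p = 0.0625). The 3 genes that passed had no overlap, and the count was 3 or 4 in the fits that leave out 1 rat.

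Only 1 gene passed among the neurotrophic list (Ret, of 11 with a symbol, 19 listed, median 0.50) and 1 of the 18 tested among 27 listed glucocorticoid-responsive and clock genes (Sgk3, 0.46 ± 0.10, adjusted p = 0.0101, edgeR; median 0.34). Without SH rat 36 or WKY rat 34 or 36 the neurotrophic count was 2. The cytokine receptor Osmr (0.42 ± 0.13, adjusted p = 0.0821) and the metallothionein Mt1 (0.61 ± 0.22, adjusted p = 0.133) were the nearest below the threshold. Of 13 listed mitochondrially encoded genes 6 have a symbol and 0 passed (median 0.25), with ND5 nearest (0.31 ± 0.10, adjusted p = 0.0792). DESeq2 called 1 of these and limma voom 0, and up to 4 were called by edgeR when 1 rat was left out.

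**Figure D4:**
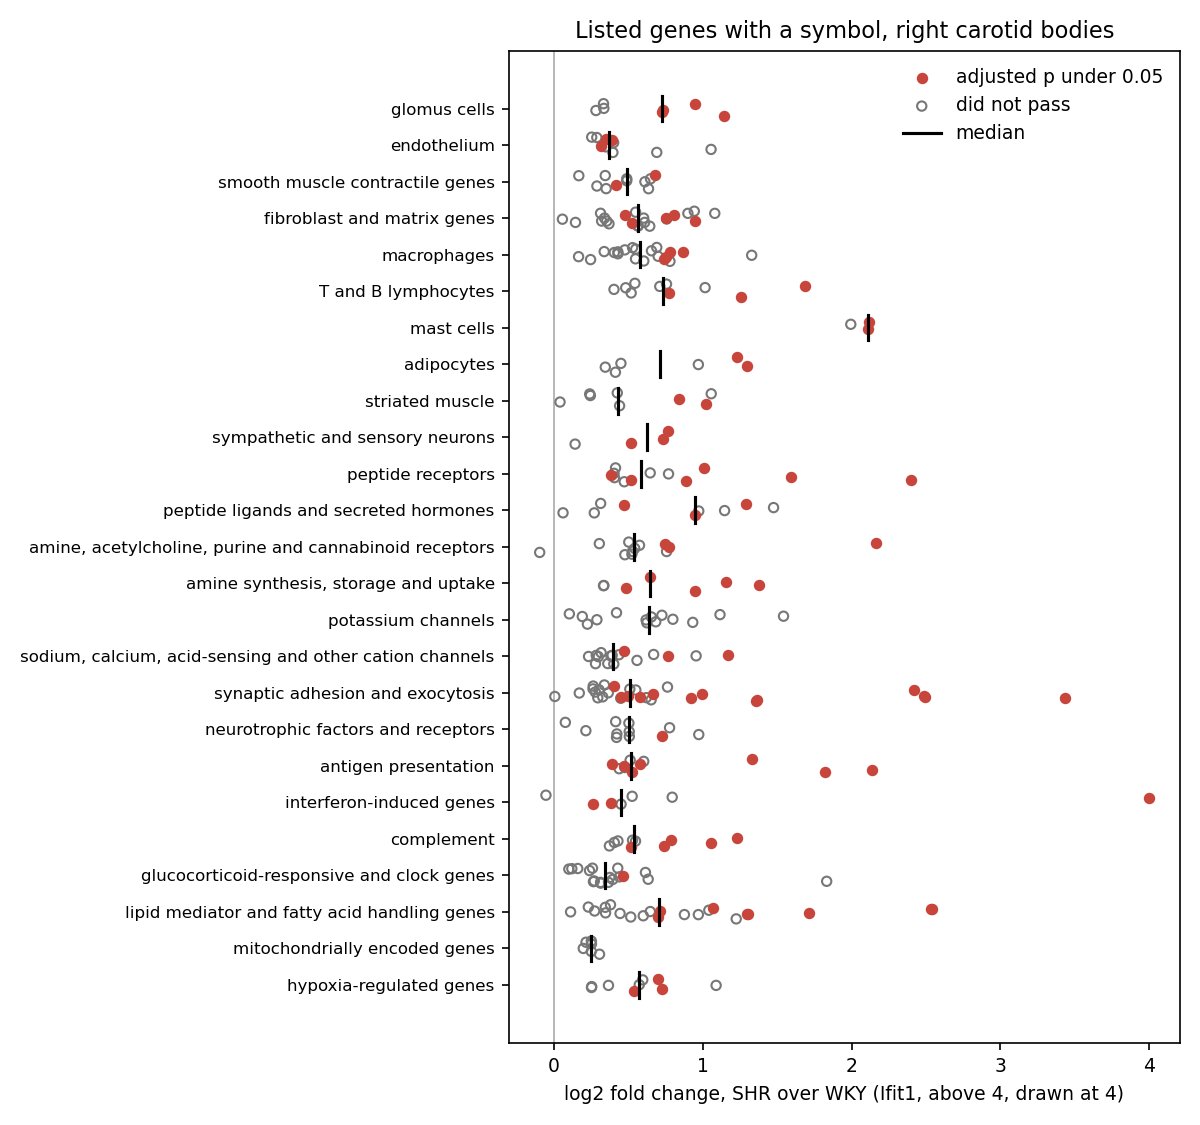
Log2 fold change (SH over WKY rats, edgeR, right CBs) of the listed genes with a symbol, 1 row per list with 3 or more tested members, Ifit1 drawn at 4. Red points passed an adjusted p of 0.05, open points did not, and black bars are medians, which lie between 0.25 and 2.11; the symbols come from table rows of genes higher in SH rats.

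Markers of the other cell types of the CB and its surroundings were described in the same way, and their part in the results above was not tested. Each summed level below is over the markers with a symbol, which were all read from rows of genes higher in SH rats. Of all named genes, 27.2% passed. This share ran from 18.2% to 33.3% in the fibroblast, smooth muscle, endothelial, macrophage, lymphocyte, adipocyte and striated muscle lists. In the small mast cell and neuronal lists it was 66.7% and 75.0%. Fibroblast and matrix genes (22 of 26 with a symbol, 5 passed) summed to 1110 to 1880 CPM in WKY and 1500 to 2540 CPM in SH rats. Genes of the smooth muscle list (11 of 20, 2 passed), which also holds adhesion genes, summed to 883 to 1510 CPM and 1220 to 2030 CPM. Endothelial genes (10 of 16, 3 passed) summed to 534 to 683 CPM and 682 to 864 CPM. The ranges overlapped between the strains for all 3 lists.

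Among these, the matrix cross-linking enzyme Loxl1 rose from 32 ± 6.05 to 61.7 ± 14.9 CPM (0.95 ± 0.17, adjusted p = 0.00371, edgeR), with SH rat 36 within the WKY range. The fibronectin-domain gene Fndc1 (0.81 ± 0.17, adjusted p = 0.0117) and the collagen receptor Itga11 (0.75 ± 0.17, adjusted p = 0.0158) rose with no overlap, and Ccn4 did not pass (0.94 ± 0.28, adjusted p = 0.0613). Of the smooth muscle list, the fibronectin receptor Itga5 (0.68 ± 0.09, adjusted p = 0.000232) and the actin cross-linker Actn1 (0.41 ± 0.07, adjusted p = 0.00194) passed, and Zyx did not (0.49 ± 0.14, adjusted p = 0.0599). Of the endothelial list, Mmrn2 passed in each fit that left out 1 rat (0.31 ± 0.06, adjusted p = 0.00691). Acvrl1 and Ushbp1 (0.35 ± 0.09 and 0.39 ± 0.10) passed over all 11 rats (adjusted p = 0.0285 and 0.0332), but neither did without SH rat 30, 31 or 37 or WKY rat 32 or 33, nor Acvrl1 without SH rat 33 or Ushbp1 without WKY rat 37 or 41 (adjusted p up to 0.0737 and 0.0961). Lyve1 did not pass (0.69 ± 0.25, adjusted p = 0.126). The endothelial count fell to 1 without SH rat 30, 31 or 37 or WKY rat 32 or 33, the fibroblast count rose to 9 without SH rat 36, and the smooth muscle count was 4 without SH rat 36 or WKY rat 34.

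Macrophage genes (20 of 23 with a symbol, 4 passed) summed to 869 to 1370 CPM in WKY and 1310 to 1970 CPM in SH rats. The scavenger receptor Stab1 was at 35.8 to 50.6 CPM in WKY (median 42.7) and at 53.1, 92, 60.8, 60 and 89.6 CPM in SH rats (0.75 ± 0.15, adjusted p = 0.00728, edgeR). Ms4a6a (0.87 ± 0.20, adjusted p = 0.0163, and 0.0542 without SH rat 33) and Cd4 (0.78 ± 0.19, adjusted p = 0.0318, but 0.0561 to 0.0815 without SH rat 30, 36 or 37 or WKY rat 33 or 36) passed, and Folr2 did not (0.70 ± 0.21, adjusted p = 0.0691). The macrophage count was 2 without SH rat 37 or WKY rat 33 and 7 without WKY rat 41. T and B lymphocyte genes (10 of 18, 3 passed) summed to 20.7 to 29.3 CPM against 35 to 61.1 CPM. The IgM receptor Fcmr was at 2.32 to 5.84 CPM against 9.38, 12.1, 7.15, 9.22 and 12.8 CPM (1.25 ± 0.25, adjusted p = 0.00652). Lat (0.77 ± 0.21, adjusted p = 0.0352) and Cd72 (1.69 ± 0.46, adjusted p = 0.0426) were less stable. Lat lost its call without any 1 of the SH rats or without WKY rat 32, 34, 37 or 41 (adjusted p up to 0.11), and Cd72 without SH rat 30, 33 or 37 or WKY rat 32, 33, 36, 37 or 41 (up to 0.127). Cd7 did not pass (adjusted p = 0.062). The lymphocyte count was 1 without SH rat 30, 33 or 37 or WKY rat 32, 37 or 41.

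Mast cell genes were scarce. Of 9 listed, 3 have a symbol and 2 passed, with a median log2 fold change of 2.11. The mast cell protease Mcpt1l1 was at 0.992 to 2.1 CPM in WKY (median 1.4) and at 6.19, 3.2, 8.84, 6.81 and 7.09 CPM in SH rats, without overlap (2.11 ± 0.27, adjusted p = 0.000158, edgeR). The chymase Cma1 was at 0.0999 to 1.26 CPM against 2.2, 0.945, 3.93, 2.52 and 2.04 CPM (2.12 ± 0.46, adjusted p = 0.011), with SH rat 31 within the WKY range. The right library of SH rat 34 had a summed level of 35.5 CPM of the 3 genes, against 4.65 to 15.3 CPM in the SH rats used. Cpa3 did not pass (1.99 ± 0.62, adjusted p = 0.0791). Of the neuronal list (4 of 15 with a symbol), Scn9a and Prph passed as given above. Nefh, a neurofilament, passed at 0.52 ± 0.12 (adjusted p = 0.0171, and 0.0554 without SH rat 31), and Stmn4 did not (0.14 ± 0.14, adjusted p = 0.633).

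Fat, muscle and thyroid lie near the CB in the neck. Of 6 adipocyte genes with a symbol (13 listed), Cd36 and Cfd passed, and Cfd lost its call in 6 fits that leave out 1 rat: those without SH rat 33 or 37 or WKY rat 32, 33, 37 or 41. Of 8 striated muscle genes (17 listed), Casq1 passed (1.02 ± 0.23, adjusted p = 0.0119, edgeR) and so did Myh3 (0.84 ± 0.23, adjusted p = 0.0408, but 0.0512 to 0.109 without SH rat 30, 31, 33 or 36 or WKY rat 32, 34, 36 or 41), while Trdn did not (adjusted p = 0.147). Of 9 listed thyroid genes, Tg and Duoxa1 have a symbol and 0 passed by edgeR, and DESeq2 called 1. Without SH rat 30, whose Tg was the highest, 603 genes were called in all. The fits without 1 rat gave 603 to 815 calls, with 621 without SH rat 33 and 627 without WKY rat 32. Of 11 listed sustentacular and Schwann genes only Pmp2 has a symbol, at 1.08 to 9.7 CPM against 1.9, 13, 2.68, 1.05 and 3.33 CPM (adjusted p = 0.827), so this cell type could not be described. No parathyroid or erythrocyte marker has a symbol here.

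The left CBs of the same rats gave 1270 calls of 14223 genes tested (8.93%), 641 higher and 629 lower in SH rats, and 1174 when SH rat 34 was left out so that the same 11 rats were compared. The median within-strain SD of log2(CPM + 1) was 0.182 for the WKY and 0.171 for the SH rats on the right, against 0.161 and 0.204 on the left over the same rats. The 2 sides shared 579 calls, which are 69.1% of the right calls and 45.6% of the left ones, and 0 of the 579 had opposite signs. The sides share their rats, but not their libraries.

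Of the 838 right calls, 259 did not pass on the left, 253 of which were tested there, and 6 had the opposite sign there. The difference between the sides was tested for 14258 genes and passed for 0 (0.0%) by edgeR, with 438 at an unadjusted p below 0.05. DESeq2 and limma voom, in which the rat was a random effect, also called 0, with 474 and 666 at an unadjusted p below 0.05. By chance about 1 gene in 20 would lie below 0.05, and each of these counts was under that share. Among the named genes, Oprl1 differed by 1.59 ± 0.33 on the right and 0.47 ± 0.32 on the left, Itga11 by 0.75 ± 0.17 and 0.21 ± 0.16, and Cd72 by 1.69 ± 0.46 and 0.05 ± 0.46, with unadjusted p for the difference of 0.0167, 0.028 and 0.0236 and an adjusted p of 0.999 for each (edgeR without a term for the rat). Agtr2 differed by 1.01 ± 0.24 on the right and 1.29 ± 0.08 on the left. Glp1r was nearly the same on both sides (-4.20 ± 0.33 and -4.16 ± 0.37).

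**Figure D5:**
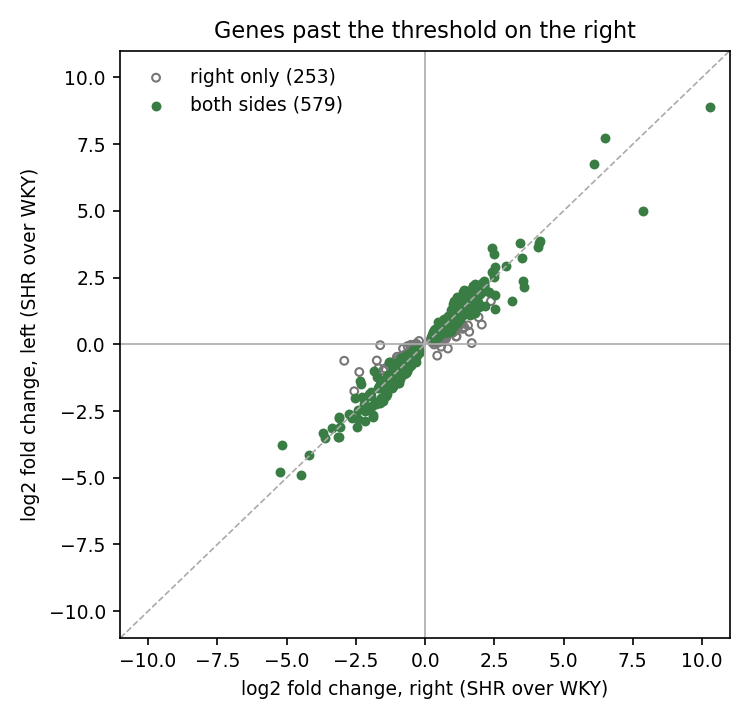
Log2 fold change between the strains (SH over WKY rats) in right CBs against left CBs for the 832 right calls that were tested on the left. Filled points (579) passed on both sides, open points (253) on the right only, and the dashed line marks equal change.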

How the data were processed

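RNA of 24 rat CBs was sequenced. The authors deposited raw counts for 32623 Ensembl genes, and the submitters' processing notes name FastQC, STAR and featureCounts. Versions, genome build, annotation release and the handling of shared reads are not given in the sources used here. Nothing was pooled.

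From the counts, the 11 right libraries were compared by edgeR 4.0.16 (TMM, robust quasi-likelihood F-test, two-sided, R 4.3.3), after dropping genes whose normalized counts averaged 10 or less, and p-values were adjusted by Benjamini and Hochberg (threshold 0.05). SE is the absolute log2 fold change divided by the root of F. DESeq2 1.42.0 gave the variance-stabilized components and an alternative test, and limma 3.58.1 voom another. The first component was compared by an exact permutation test over rats. Tests were checked on simulated counts with planted log2 changes of 1 and 2. False calls made up 4.69% of the calls of edgeR, 8.29% of those of DESeq2 and 4.17% of those of limma voom. Smaller changes, such as the median of 0.62 among the genes called here, were not planted. Figures used matplotlib 3.10.9 and tables pandas 2.3.3 with scipy 1.17.1.

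Totals of 9334257 to 13655419 counts limit low genes: 3 counts or fewer were taken as the floor. Intervals cover counting error only. The rats are separate animals, so p-values of the strain comparisons are over rats. In the edgeR and DESeq2 tests of the difference between the sides, the left and right library of a rat counted as independent. The closest of the 66 pairs of right libraries differed by more than sampling noise.

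Symbols came from the study's table of genes, of which the part read here (1391 rows, 1273 with a symbol) holds genes higher in SH rats. Glp1r, Insr and Gipr are the 1 gene each with the fold change and adjusted p printed by the study, in a DESeq2 fit of 23 libraries. Columns of the authors' own comparisons hold fold changes and p-values and gave no other value. The promoter of Ifit1 is not printed here. Marker and pathway lists and the compared libraries were chosen with earlier results of these data known.

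The text names the 8 symbols of largest rise without overlap, up to 3 per list that passed, and 1 that did not with the lowest adjusted p, 2 identifiers each way without a symbol, genes past the interaction (0), and Glp1r, Insr, Gipr and Tg. Some genes that this rule names are not reported here. Genes named beyond this rule (Slc6a4, Rnls, Sstr2, Nrcam, Nxph1, Tapbp, Tapbpl, Psmb8, Cxcl10, Enpp2, Duoxa1 and Npnt) were chosen after their values were seen. Alternatives were DESeq2's size factors, other tests and filters, all 12 right libraries, rat number as a replicate block, and each rat left out in turn. The 12 left libraries entered only the comparison of the sides.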

Additional observations from a re-analysis of the deposited data

Results flagged for a closer look

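Over 192 groups of values, 14 had a library set apart from the rest of its strain by a gap test at the 95% level, which flags about 1 group in 20 by chance. Tg was at 217.5 CPM in SH rat 30, against 1.05 to 29.2 CPM in the other 4 SH rats. In the right library of SH rat 34, which is not among the 11 libraries compared, Tg was at 7849 CPM, against at most 3.35 CPM in the WKY rats. Agtr2 was at 89.7 CPM in WKY rat 36, against 210 to 261 CPM in the other 5 WKY rats. Insr was at 52.3 CPM in SH rat 36, against 41.8 to 43.4 CPM. Cd36 was at 40.8 CPM in SH rat 37, against 26.6 to 30.6 CPM, and Lat was at 5.67 CPM in SH rat 31, against 3.89 to 4.4 CPM. ND5 was at 3050 CPM in SH rat 31, against 3746 to 4021 CPM.

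Pmp2, a myelin protein, was at 9.7 CPM in WKY rat 36, against 1.08 to 3.6 CPM, and at 13 CPM in SH rat 31, against 1.05 to 3.33 CPM. Cma1 was at 1.26 CPM in WKY rat 33, against at most 0.517 CPM. Ms4a6a was at 8.17 CPM in WKY rat 34, against 3.74 to 5.18 CPM, and Nefh was at 13.4 CPM in WKY rat 41, against 9.85 to 10.8 CPM. The other 3 were single counts in genes at 0 in the rest of the WKY rats: Ifit1 at 0.105 CPM in rat 33, and ENSRNOG00000060524 and ENSRNOG00000032518 at 0.0893 CPM in rat 41.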

How the results depend on the processing

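The 838 calls became 841 with DESeq2's size factors, 1257 with the DESeq2 test, 849 with limma voom, 850 with no filter on low counts and 850 with filterByExpr. Leaving out 1 rat gave 603 to 815 calls, the fewest without SH rat 30. With all 12 right libraries the count moved to 238. With the replicate block it moved to 63. The labels do not say whether rats of the same number in the strains share more than the number. The correlation of same-numbered rats' deviations ran from -0.322 to 0.0216, against a median of -0.0113 for rats of different numbers. With only 3 such pairs, these values cannot settle whether the numbers mark a shared step. The left side gave 1281 calls with DESeq2's size factors, 1680 with the DESeq2 test and 1174 without SH rat 34, and the interaction gave 0 in the 4 alternatives run. The first component's difference of 14.4 was 18.2 over 2000 genes and, with SH rat 34 included, 11 (exact permutation p = 0.803), where that library sat at 72.3 and the strains separated on the second component instead (exact permutation p = 0.00216). Pmp2 turned to -0.41 with the replicate block, and ran from -0.66 without SH rat 31 to 0.93 without WKY rat 36. Stmn4 turned to -0.081 with all 12 right libraries. Of the 94 genes picked by the rule for naming with values, 68 passed, and these do not stand for the 1261 with a symbol. Of the 68, 47 passed in each fit without 1 rat, and 16 missed the threshold in at least 1. The other 5 passed wherever they were tested but had too few counts in 1 or 2 of these fits (Chrm1, Dppa4, ENSRNOG00000030689, ENSRNOG00000032518 and ENSRNOG00000048741). With all 12 right libraries 20 of the 68 passed, and with the replicate block 11. With the block, the strain difference rests on rats 33, 36 and 37, the only numbers found in both strains. The cause of the lower counts with all 12 right libraries was not tested.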

Other observations

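Of the genes called on the right but not on the left, Npnt, an integrin ligand of basement membranes that was chosen after its values were seen, had a log2 fold change of 0.82 on the right (adjusted p = 0.00435, edgeR) and -0.16 on the left. The unadjusted p of the difference was 0.000175 by edgeR without a term for the rat, and no gene passed after adjustment.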
